A study of Drosophila melanogaster with 2 samples.

Results

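The genes examined are 10 that encode main enzymes of glycolysis in Drosophila melanogaster: Hex-A, Pgi, Pfk, Ald1, Tpi, Gapdh1, Gapdh2, Pgk, Eno and Pyk. Genes for phosphoglycerate mutase, also an enzyme of the pathway, are not among them and are treated with further genes below. The 10 genes were chosen by name, with earlier results of these data known, from the 13945 protein-coding genes on the main chromosome arms. All 10 were found in the annotation, 9 by symbol and Pyk under the spelling PyK. For each gene, every region of the deposited peak lists was collected whose summit lay in the gene or within 5 kb of either end. Those lists come from chromatin immunoprecipitation and sequencing (ChIP-seq) of the transcription factor Atf-2. Whole embryos, male and female mixed and aged 0 to 24 h, came from a stable transgenic line in which GFP is joined to the C-terminal end of Atf-2, and their chromatin, sheared by sonication to 200 to 800 bp, was immunoprecipitated through the GFP tag. The samples form 1 group of 2 biological replicates, numbered 2 and 3, so there was no second condition to compare; a replicate 1 and controls were not analysed here. A peak in whole embryos cannot be assigned to a tissue or an age within that day, and the amount of tagged protein is not measured in these lists.

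Glycolysis breaks glucose down to pyruvate in the cytosol. Its early steps prime and split the sugar (hexokinase, glucose-6-phosphate isomerase, phosphofructokinase, aldolase and triosephosphate isomerase). Its later steps yield ATP, and their enzymes include glyceraldehyde-3-phosphate dehydrogenase, phosphoglycerate kinase, enolase and pyruvate kinase. In fly embryos the nuclear receptor ERR is known to raise the expression of many of these genes midway through development. Atf-2 is a basic leucine zipper factor of the stress response, a target of the kinase p38, and its relatives bind the cAMP response element (CRE).

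The sequences around the strongest summits in these genes and around a close pair of summits in Pgk are shown because the peaks described below centre on them. Each is 201 bases long with the summit in the middle, from the Release 6 (dm6) sequence, and is given 5′ to 3′ on the strand of the gene. The Hex-A window is chrX:9585455-9585655 on the plus strand and the Gapdh2 window is chrX:15867859-15868059 on the plus strand, both upstream of the first exon. The Pgk windows are on the minus strand in introns, at chr2L:2750378-2750578, chr2L:2750577-2750777 and chr2L:2751929-2752129. Capitals mark a match to a motif: GAGAG or its reverse CTCTC (GAGA site), TGANTCA (AP-1 site) and ATCGATAG.
Hex-A: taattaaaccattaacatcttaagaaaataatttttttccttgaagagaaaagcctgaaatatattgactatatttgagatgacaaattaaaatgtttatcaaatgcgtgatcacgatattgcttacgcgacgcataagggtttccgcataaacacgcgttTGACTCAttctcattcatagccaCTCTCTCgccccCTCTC
Gapdh2: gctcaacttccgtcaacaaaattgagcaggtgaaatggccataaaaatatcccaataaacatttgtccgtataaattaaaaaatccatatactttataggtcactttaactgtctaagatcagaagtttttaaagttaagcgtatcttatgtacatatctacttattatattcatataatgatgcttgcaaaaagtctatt
Pgk first summit: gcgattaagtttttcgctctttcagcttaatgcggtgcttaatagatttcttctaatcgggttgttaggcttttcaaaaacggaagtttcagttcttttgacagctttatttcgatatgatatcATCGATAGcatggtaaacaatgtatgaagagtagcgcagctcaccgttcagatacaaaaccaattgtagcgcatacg
Pgk second summit: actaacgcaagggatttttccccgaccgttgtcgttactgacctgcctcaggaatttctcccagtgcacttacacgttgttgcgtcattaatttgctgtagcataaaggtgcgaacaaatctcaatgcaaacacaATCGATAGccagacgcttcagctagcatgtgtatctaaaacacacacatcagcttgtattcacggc
Pgk strongest summit: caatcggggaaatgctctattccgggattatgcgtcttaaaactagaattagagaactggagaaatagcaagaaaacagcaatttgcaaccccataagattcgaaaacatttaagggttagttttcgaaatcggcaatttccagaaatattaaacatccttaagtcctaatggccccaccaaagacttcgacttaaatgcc
Capitals occur in 3 of the 5. The Hex-A window holds 1 AP-1 site and, near its end next to the gene, 3 GAGA sites, of which 2 overlap. Each of the neighbouring Pgk windows holds 1 copy of ATCGATAG, and the windows at the strongest summits of Gapdh2 and Pgk hold none of the motifs searched.

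Atf-2-GFP peaks stood at the promoters of 4 of the 10 genes: Hex-A, Gapdh2, Pgk and Eno. A promoter peak is a summit within 500 bp of a transcription start site (TSS) in the IDR list. That list, cut by the authors at a set irreproducible discovery rate (IDR) between replicates, holds 3265 peaks and equals the 3265 strongest regions of the pooled list. A further 3 genes, Pgi, Pfk and Pyk, had an IDR summit in the gene or its 5 kb flanks, each at the promoter of a neighbour, and Ald1, Tpi and Gapdh1 had none. The share with a promoter peak was 40% of the 10, against 14.9% of all protein-coding genes. All 10 genes have 2 to 5 annotated TSSs (median 2, against 1 over all genes), and of all genes with at least 2 TSSs 25.3% had a promoter peak. Counting only the outermost TSS, 3 of the 10 genes had one, against 13.1% of all genes. With 10 genes each one weighs heavily in the share. The genes were chosen with earlier results of these data known, so no test was made of these shares.

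The 7 genes with an IDR summit in the window compare with 39.2% of all genes by the same rule; the windows of the 10 genes had a median of 14504 bp, against 12166 bp over all genes. The windows held 14 IDR summits in all, 6 of them inside the genes (5 in Pgk and 1 in Eno). Below the IDR list, presence says little, since the pooled list and each replicate list hold 30000 regions and include background. All 10 genes had a pooled region of some rank within 500 bp of a TSS, against 51.1% of all genes, and among all genes with such a region 29.2% had a promoter peak. The median signal of the strongest such region was 53.6 at the 10 genes and 51.4 over all genes that have one. Signal is the value the authors' peak caller wrote for a region, and the lists were not scaled to one another, so a level in one list is not read against a level in another. No read totals are in the lists, so depth is unknown.

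**Figure D1:**
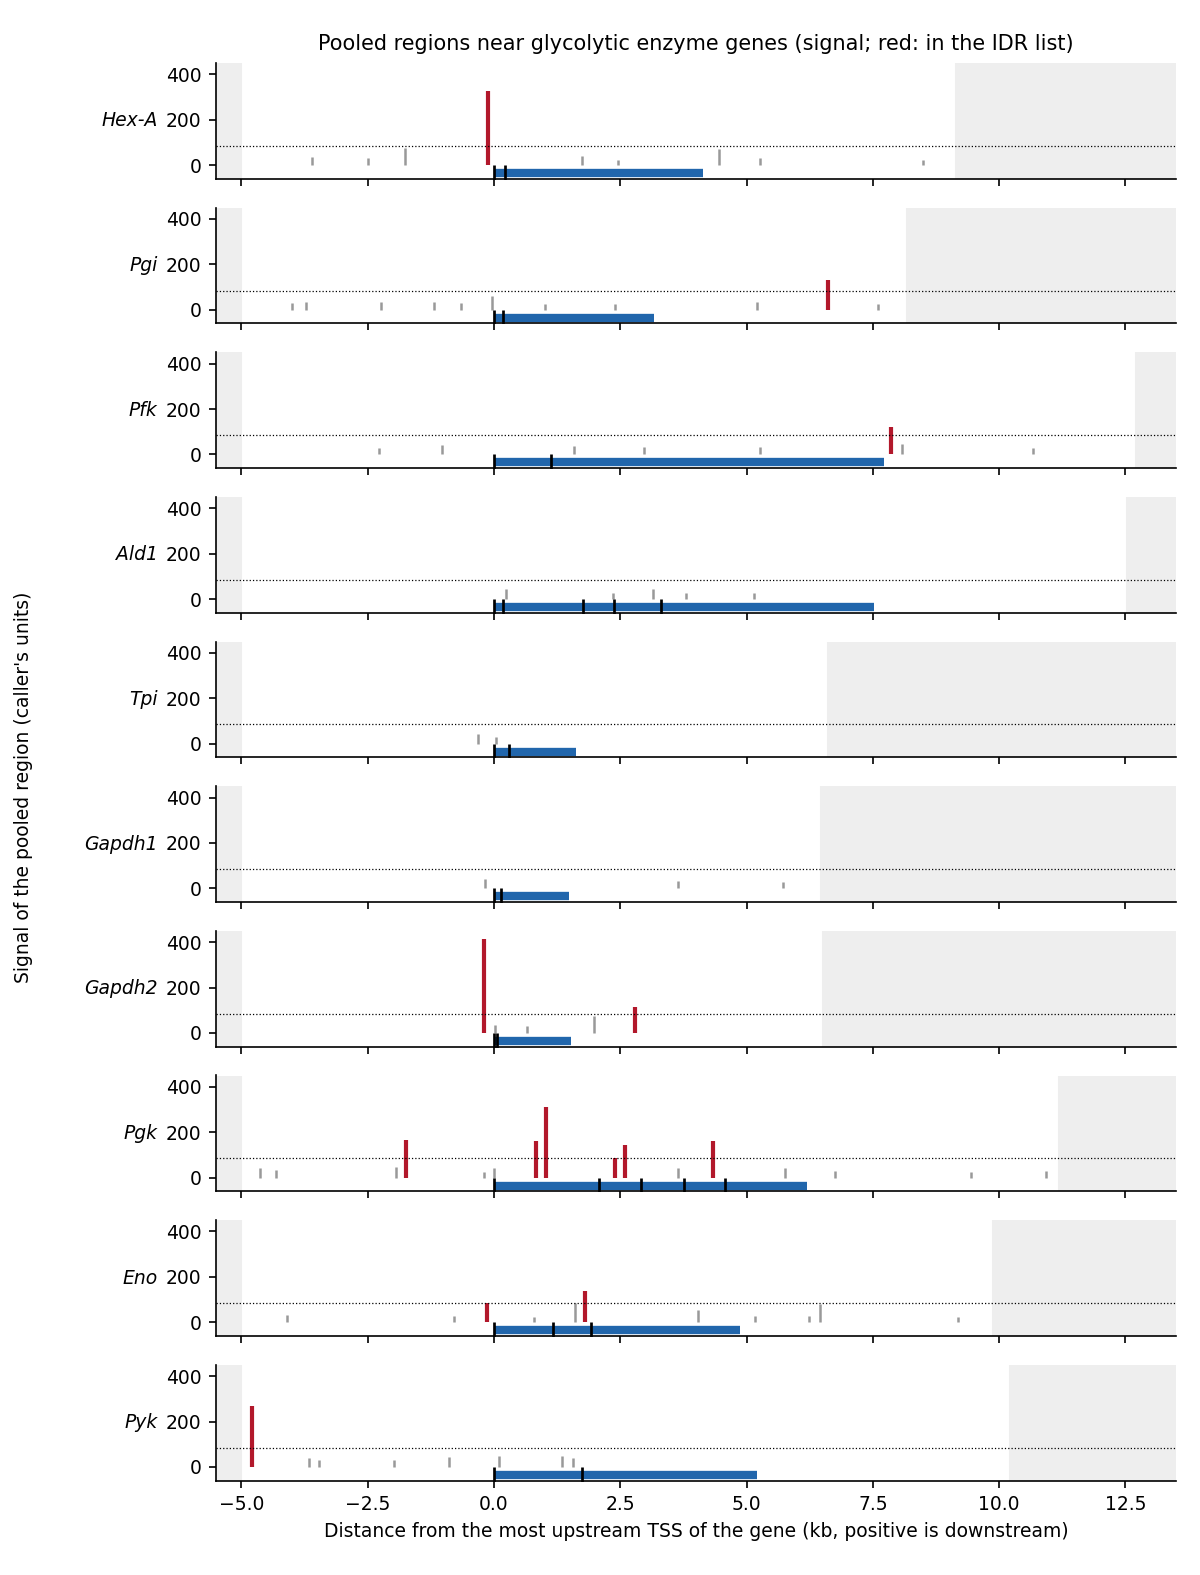
Pooled regions in the window of each of the 10 glycolytic genes, with height giving the signal in the caller's units and the horizontal axis the distance in kb from the most upstream TSS. Red lines are in the IDR list, the blue bar is the gene, black ticks are its TSSs, the dotted line is the weakest IDR signal (84.6) and grey areas lie outside the window; the tall red lines stand beside a TSS at Hex-A (324.8) and Gapdh2 (413.2), while Pgk has 6.

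Among the priming steps, Hex-A carried the strongest peak. Hex-A encodes the hexokinase that traps glucose in the cell as glucose-6-phosphate, and lies on chromosome X at 9585675 to 9589813, plus strand. Its peak, at 9585408 to 9585652 with the summit at 9585555, was intergenic and 120 bp upstream of the TSS. The signal was 324.8 in the pooled list (rank 283), 238.3 in replicate 2 (rank 229) and 93.26 in replicate 3 (rank 419). Both replicates thus placed it among their own 3265 strongest regions, and their summits lay 7 and 20 bp from the pooled one. Of all genes, 98.2% had a weaker promoter region or none. No other gene had a TSS within 500 bp of this summit. The next strongest of the 9 pooled regions in the Hex-A window, at 1769 bp upstream (signal 74.35) and 4249 bp downstream (68.99), lay within 500 bp of the noncoding genes lncRNA:CR45541 and lncRNA:CR45542, and neither was in the IDR list.

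Pgi and Pfk had IDR summits beside them but not at their own promoters. Pgi encodes glucose-6-phosphate isomerase, which turns glucose-6-phosphate into fructose-6-phosphate. The IDR summit in its window, on 2R at 8907451, was 6435 bp downstream of the nearest Pgi TSS and beyond the end of the gene. It lay 67 bp from the TSS of CG30349 and 461 bp from that of CCT8, a subunit of the cytosolic chaperonin. Its signal was 129.0 pooled (rank 1684), 73.6 in replicate 2 (rank 2159) and 54.46 in replicate 3 (rank 1263). At the Pgi promoter itself, 38 bp upstream of the TSS, the pooled signal was 60.6 (rank 5310), below the IDR minimum of 84.6. Replicate 2 alone ranked this region high, with a signal of 63.96 (rank 2693), and replicate 3 listed no region within 500 bp. The summit is shared with the divergent neighbour lin.

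Pfk encodes phosphofructokinase, the main point of control in the pathway. The IDR summit of its window, on 2R at 10117604, lay 147 bp past the end of Pfk and 90 bp from the TSS of dmpd, the next gene. Its signal was 119.1 pooled (rank 1920), 60.26 in replicate 2 (rank 2921) and 55.01 in replicate 3 (rank 1234), so the peak was present in both replicates but is a promoter peak of dmpd. Within 500 bp of a Pfk TSS the pooled list held 1 region, in the 5′ UTR, 454 bp downstream of the TSS, with a signal of 37.32 (rank 12644). Replicate 3 had a region there (26.75, rank 4906) and replicate 2 had none.

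Ald1 and Tpi had no IDR summit in the gene or its flanks. Ald1 encodes the aldolase that splits fructose-1,6-bisphosphate, and Tpi the isomerase that interconverts the products of that split. Ald1 has 5 TSSs, and its strongest promoter region, in the 5′ UTR 70 bp downstream of a TSS, had a pooled signal of 46.01 (rank 8524). The replicates differed at Ald1, where the strongest promoter region of replicate 3 ranked 2518 (signal 37.52, 75 bp downstream) and that of replicate 2 ranked 9875 (signal 27.67, at another TSS). Ald1 therefore counts among the genes with a strong promoter region in replicate 3 alone. The strongest region of Tpi lay 305 bp upstream of a TSS in the 3′ UTR of its neighbour AdoR, an adenosine receptor gene, with signals of 42.56 pooled (rank 9844), 24.75 in replicate 2 (rank 12290) and 20.58 in replicate 3 (rank 8813).

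Gapdh2 had the strongest promoter peak of the 10 genes, and its paralog Gapdh1 had none. Both encode glyceraldehyde-3-phosphate dehydrogenase, which couples oxidation of the triose to uptake of phosphate. Gapdh2 lies on chromosome X at 15868145 to 15869661, plus strand, and its peak, at 15867832 to 15868114, was intergenic with the summit at 15867959, 186 bp upstream of the TSS. The signal was 413.2 pooled (rank 148), 289.0 in replicate 2 (rank 133) and 126.2 in replicate 3 (rank 195). Of all genes, 99.1% had a weaker promoter region or none, and no other gene had a TSS within 500 bp of the summit. A second IDR summit in the window, at 15870936, was 2725 bp downstream of the nearest Gapdh2 TSS, in an intron of CG16952 and 753 bp from the TSS of that gene. It was weaker, with signals of 115.9 pooled (rank 2019), 72.92 in replicate 2 (rank 2185) and 29.23 in replicate 3 (rank 4072).

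Gapdh1, on 2R at 7791901 to 7793380, minus strand, had a single promoter region in each list. The pooled one, 183 bp upstream of a TSS, had a signal of 42.23 (rank 9986), with 25.54 in replicate 2 (rank 11556). In both lists its summit was nearer to the TSS of the neighbour PolZ1, 62 bp away. In replicate 3 the region (18.96, rank 10729) had its summit 369 bp upstream, in a coding exon of PolZ1, whose TSS also lies within 500 bp. The paralogs thus ranked far apart in all 3 lists, Gapdh2 between 133 and 195 and Gapdh1 between 9986 and 11556. The lists do not say whether reads that map to both genes were kept, so sequence shared between the paralogs was not tested as a source of signal.

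**Figure D2:**
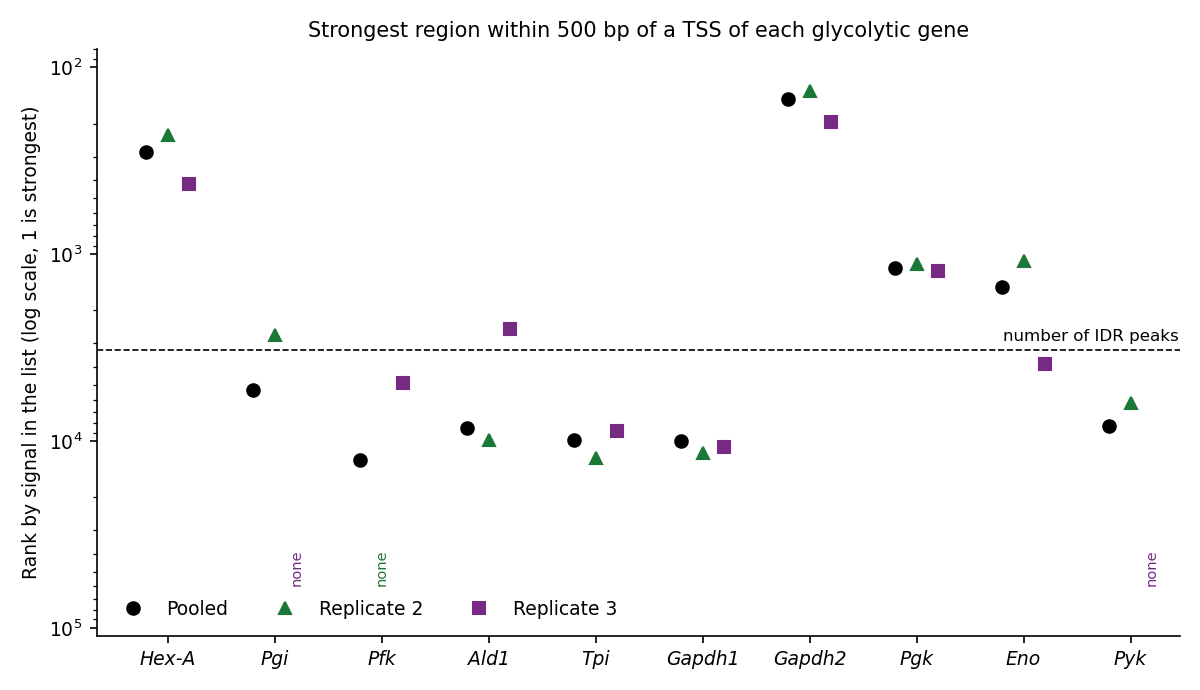
Rank by signal of the strongest region within 500 bp of a TSS of each glycolytic gene in the pooled list, replicate 2 and replicate 3, on a log scale with the strongest at the top. The dashed line marks rank 3265, the number of IDR peaks; Hex-A, Gapdh2 and Pgk are above it in all 3 lists, Eno in 2, Pgi and Ald1 in 1 replicate each, and "none" marks a list with no region there.

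Pgk had more IDR summits than any other of the 10 genes, 6 in its window and 5 inside the gene. Pgk encodes phosphoglycerate kinase, which makes the first ATP of the later steps. With Pgk, 35 genes (0.251% of all) had at least 6 in their window, and 32 genes (0.229%) had at least 5 in the gene. These counts take no account of gene length or of summits on overlapping intervals, which Pgk has. Pgk lies on 2L at 2746880 to 2753068, minus strand, has 5 TSSs and overlaps the first 624 bp of Bacc, which starts on the opposite strand. Its summits fell into 2 groups, 3 at internal promoters of Pgk and 3 nearer to TSSs of Bacc.

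At the Pgk promoters, the strongest summit, at 2748725 in the 5′ UTR, was 238 bp upstream of the innermost TSS. It had a signal of 160.2 pooled (rank 1178), 108.9 in replicate 2 (rank 1125) and 55.25 in replicate 3 (rank 1228), so its rank was nearly the same in the 3 lists. A pair of summits in introns followed, at 2750478 and 2750677, on overlapping intervals. The first, 331 bp upstream of a TSS, had a signal of 143.2 pooled (rank 1416), 95.36 in replicate 2 (rank 1428) and 48.98 in replicate 3 (rank 1546). Its partner, 312 bp downstream of a TSS, was at 88.08 pooled (rank 3071), close to the IDR minimum. Replicate 2 held it at 70.65 (rank 2302) and replicate 3 only at 16.76 (rank 14242). No IDR summit lay within 500 bp of the outermost Pgk TSS, where the pooled region, 9 bp downstream of the TSS, had a signal of 42.32 (rank 9939).

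The strongest peak inside Pgk is in the Pgk intron that faces Bacc. Its summit, at 2752029, was 1039 bp from the nearest Pgk TSS and 416 bp upstream of the nearest Bacc TSS. The signal was 310.8 pooled (rank 307), 230.0 in replicate 2 (rank 246) and 87.04 in replicate 3 (rank 489), and its interval, 109 bp, was narrow. A second summit at 2752235, on an interval that overlaps that of the summit at 2752029, had a signal of 162.2 pooled (rank 1148). It lay 833 bp from the nearest Pgk TSS and 210 bp from that of Bacc. This summit was also uneven between the replicates, at 119.5 in replicate 2 (rank 967) and 22.71 in replicate 3 (rank 7045). Farther out, the summit at 2754813 lay 1745 bp upstream of Pgk in an intron of Bacc, 1580 bp from a Bacc TSS, with signals of 163.8 pooled (rank 1128), 101.0 in replicate 2 (rank 1299) and 66.32 in replicate 3 (rank 842). By the rule on distance these 3 are not Pgk promoter peaks. The summits at 2752029 and 2752235 are promoter peaks of Bacc by that rule, and the summit at 2754813 is a promoter peak of neither gene. The peak lists alone cannot say which gene, if either, these intronic summits act on.

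**Figure D3:**
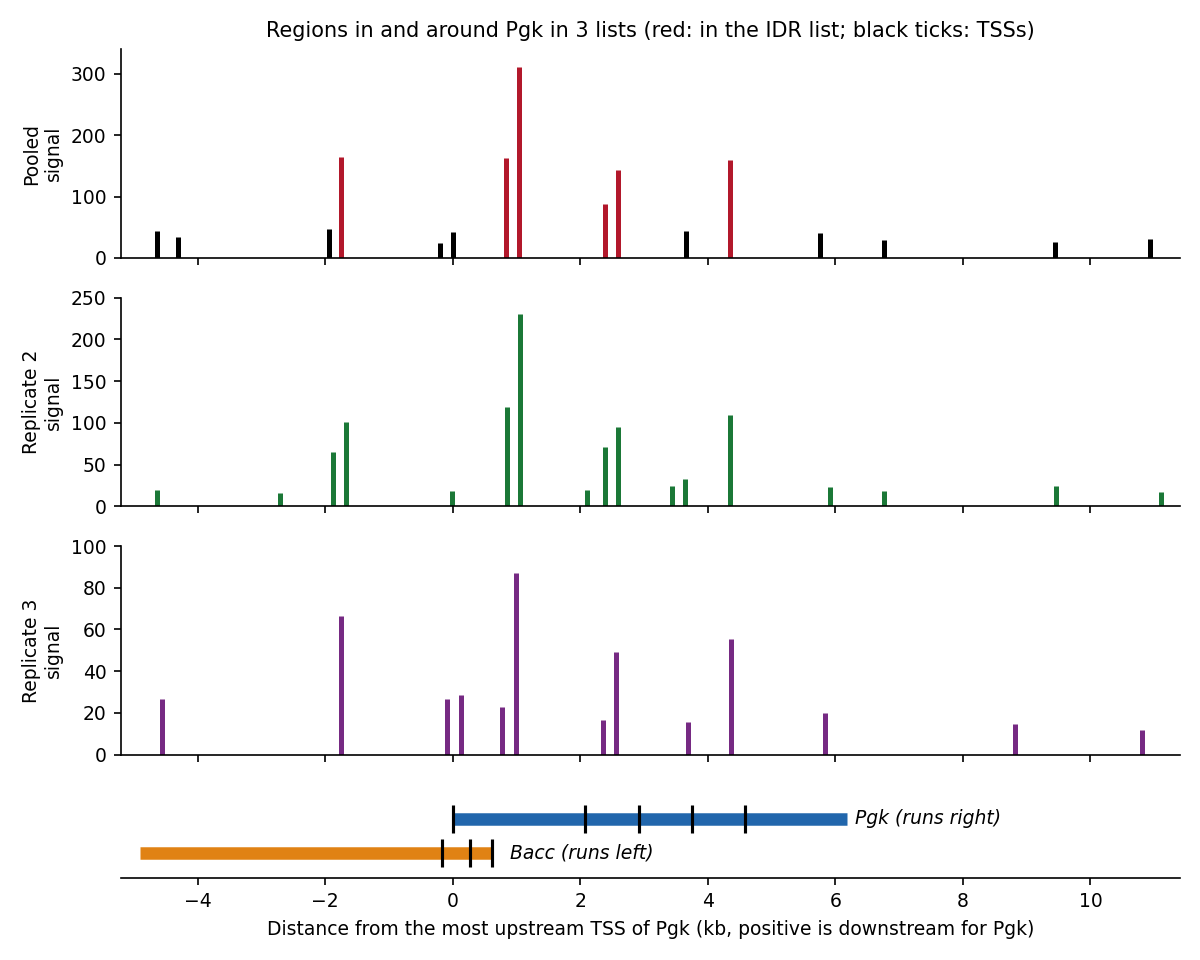
Signal of the regions in the Pgk window in the pooled list (IDR peaks in red), replicate 2 and replicate 3, against distance in kb from the most upstream TSS of Pgk, each panel on its own scale in the caller's units. Bars below show Pgk and Bacc with their TSSs as black ticks; in all 3 lists the tallest line, with signals of 310.8, 230.0 and 87.04, stands about 1 kb inside Pgk, just outside the nearest Bacc TSS.

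Eno had a promoter peak at 2 of its 3 TSSs, with pooled signals of 138.6 and 85.05. Eno encodes enolase, which makes phosphoenolpyruvate, and lies on 2L at 1724768 to 1729636, minus strand. The peak at 1727836, in the 5′ UTR and 119 bp upstream of the innermost TSS, had a signal of 138.6 pooled (rank 1492), 111.3 in replicate 2 (rank 1093) and 26.34 in replicate 3 (rank 5078). Both replicate summits lay off the pooled one, by 126 and 145 bp, inside an intron, whereas the pooled list held a second region there with its summit at 1728035 and a signal of 82.91 (rank 3359), just short of the IDR minimum. The outer peak, at 1729774, lay 138 bp upstream of the outermost Eno TSS and 113 bp from that of the divergent CG31937. Its signal was 85.05 pooled (rank 3242), among the weakest in the IDR list, with 55.81 in replicate 2 (rank 3250) and 29.96 in replicate 3 (rank 3879). In replicate 3 neither Eno peak was among the 3265 strongest regions.

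Pyk encodes pyruvate kinase, which carries out the last step. The one IDR summit of its window, on 3R at 22362739, was 4797 bp upstream of Pyk, with the genes CG7071 and Muted starting 119 bp away and JMJD6, on the other side, 368 bp away. It was strong, at 267.5 pooled (rank 423), 196.4 in replicate 2 (rank 352) and 74.31 in replicate 3 (rank 680), and it lay in the 5′ UTR shared by CG7071 and Muted. At the Pyk promoters the strongest region, in an intron and 389 bp upstream of the inner TSS, had a pooled signal of 46.53 (rank 8338). Replicate 2 had a region of 35.69 (rank 6286) at 181 bp upstream, and replicate 3 had none within 500 bp of a Pyk TSS.

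Both replicates ranked Hex-A, Gapdh2 and Pgk high. Among the 3265 strongest regions of replicate 2, promoter summits were found at 5 of the 10 genes (Hex-A, Pgi, Gapdh2, Pgk and Eno), against 15.0% of all genes. In replicate 3 they were found at 4 (Hex-A, Ald1, Gapdh2 and Pgk), against 14.1% of all genes. Of the 14 IDR peaks near the 10 genes, 11 overlapped a top-3265 region in both replicates, against 73.2% of all IDR peaks, the others being both Eno peaks and the outer Gapdh2 peak. At 2 of the 11, the Pgk summits at 2750677 and 2752235, the overlap in replicate 3 was with the stronger neighbouring region. As a measure of how evenly the replicates held each peak, and not of binding, the ratio of replicate 2 to replicate 3 signal had a median of 2.39 over the 14 peaks (1.1 to 5.26), against 1.94 over all IDR peaks (5th to 95th percentile 1.07 to 3.7). Above that span lay the Pgk summits at 2752235 (5.26) and 2750677 (4.21) and the inner Eno peak (4.22). With 2 replicates no error beyond this spread can be given.

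Most promoter summits lay upstream of their TSS. Of the 7 summits within 500 bp of a TSS of one of the 10 genes, 6 lay upstream of it, the exception being the Pgk summit at 2750677. Over all 2300 pairs of IDR summit and protein-coding gene within that distance, 87.2% were upstream. The intervals at the strongest summits of Hex-A, Gapdh2, Pgk and Pyk and at the inner Pgk promoter, 5 of the 14, were narrower than the usual 436 bp, as were 22.5% of all IDR peaks, whose median signal was 272.1, against 116.8 at 436 bp.

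No CRE was found in the 14 windows that reach 100 bp to either side of an IDR summit, nor in the promoters of the 10 genes, taken as 250 bp before to 50 bp after each TSS. The CRE is TGACGTCA, which 0.49% of all IDR windows and 0.724% of all genes' promoters hold. The AP-1 site TGANTCA was in 1 of the 14 windows, that of Hex-A printed above, 61 bp from the summit and 59 bp before the TSS, against 5.02% of all IDR windows. It was in the promoters of 3 of the 10 genes (Hex-A, Ald1 and Pgk), against 8.27% of all genes and 14.4% of genes with at least 2 TSSs, which have more sequence searched, and the Pgk match lay at a TSS with no IDR summit. The AP-1 site was added to the search after the windows had been read, so its count in the 14 windows is not independent of that choice. All motifs were sought on both strands, and a match is a string of letters and not a shown binding site.

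The GAGA site GAGAG, bound by the GAGA factor, was in 5 of the 14 windows (Hex-A, the inner Pgk promoter, both Eno peaks and the Pyk neighbour), against 22.8% of all IDR windows. It was in the promoters of 6 of the 10 genes (Hex-A, Ald1, Gapdh2, Pgk, Eno and Pyk), against 36.4% of all genes and 59.0% of genes with at least 2 TSSs. ATCGATAG, which shares the letters ATCGATA with the DRE (the DREF-binding element TATCGATA of many promoters), was in the windows of both neighbouring Pgk summits, 31 and 42 bp from them, against 3.74% of all IDR windows and 9.39% of promoters. Of the 10 genes only Gapdh1, which had no IDR summit, had ATCGATAG in a promoter. Gapdh1 was also the only one with the M1BP site GGTCACACT (6.78% of all genes, 1.32% of IDR windows). The DRE itself (3.74% of IDR windows, 10.2% of promoters), the ERR site TCAAGGTCA (0.0306% and 0.215%), the E-box CACGTG (2.24% and 5.34%) and CACTGAGA (4.1% and 1.31%) matched none of the 14 windows and none of the 10 genes' promoters. CACAGTGG (5.05% and 1.91%) matched no window and the promoter of Tpi alone. CACAGTGG, CACTGAGA and ATCGATAG are leading strings of the whole peak list, and CACAGTGG and CACTGAGA were searched for that reason. The shares of IDR windows with these strings are therefore not independent of that choice. ATCGATAG was added to the search only after the windows had been read, so its count in the 14 windows is not independent of the choice either. GC content of the 12 windows at Hex-A, Gapdh2, Pgk, Eno and Pyk ran from 28.9% at the Gapdh2 promoter to 48.3% at the Pgk summit at 2752235, against 37.0% ± 6.41 (SD, n = 3265) over all IDR windows.

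Among 15 further genes of glycolysis (paralogs of the enzymes and phosphoglycerate mutases, with the regulator Pfrx and lactate dehydrogenase), 2 had a promoter peak, or 13.3%, close to the 14.9% of all genes. They were Ldh, which turns pyruvate into lactate, with signals of 185.2 pooled (rank 898), 125.8 in replicate 2 (rank 865) and 61.06 in replicate 3 (rank 1002), and Pfrx, whose product sets the level of fructose-2,6-bisphosphate, with 152.4 pooled (rank 1288), 99.85 in replicate 2 (rank 1328) and 53.09 in replicate 3 (rank 1318). These ranks lie to either side of that of the inner Pgk promoter, 1178. None of the other 13, paralogs and phosphoglycerate mutases, had one, and 11 of them had no pooled region within 500 bp of a TSS; the exceptions were Hex-t2 (25.27, rank 26198) and Pglym78 (33.98, rank 15158). In the window, 7 of the 15 genes had an IDR summit, against 39.2% of all genes. The strongest lay past the end of Hex-C, 2574 bp downstream of its TSS (1112.0 pooled, rank 14). Next was one past the end of CG12229, 2641 bp downstream of its TSS (555.8, rank 76). Which other genes have a TSS near these summits was not examined. The paralog next to Pgk, CG9961, had the 160.2 peak of Pgk in its window, and CG7069, next to Pyk, had the 46.53 region of Pyk, so these are the same regions counted for both genes.

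Of 14 genes that feed, drain or regulate the pathway, 5 had a promoter peak, or 35.7%, against 14.9% of all genes and 25.3% of genes with at least 2 TSSs. The strongest was at Pgm1, which links glycogen to glucose-6-phosphate (294.1 pooled, rank 350; 177.2 in replicate 2; 115.9 in replicate 3). Next came bigmax, the partner of the sugar sensor Mondo (246.2, rank 506), ERR (173.3, rank 1019), Glyp, the glycogen phosphorylase (155.0, rank 1248), and Gpdh1, which makes glycerol-3-phosphate (110.5, rank 2168). ERR had 2 promoter summits. Pgm1, bigmax and Glyp have 1 TSS each, so the share for genes with at least 2 TSSs is not a matched one for this group. The promoter regions next in signal, at Treh (trehalase, 78.35), Tret1-1 (trehalose transport, 60.18), sima (the HIF-1 alpha homologue, 52.36) and Pdk (pyruvate dehydrogenase kinase, 49.04), were below the IDR minimum. These genes did have IDR summits in their windows, more than 500 bp from their TSSs. The strongest at each was 287.9 at Treh (rank 373), 259.5 at sima (rank 446), 202.8 at Tret1-1 (rank 749) and 174.0 at Pdk (rank 1003). In the window, 9 of the 14 genes had an IDR summit, against 39.2% of all genes. No group of genes was tested against another.

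**Figure D4:**
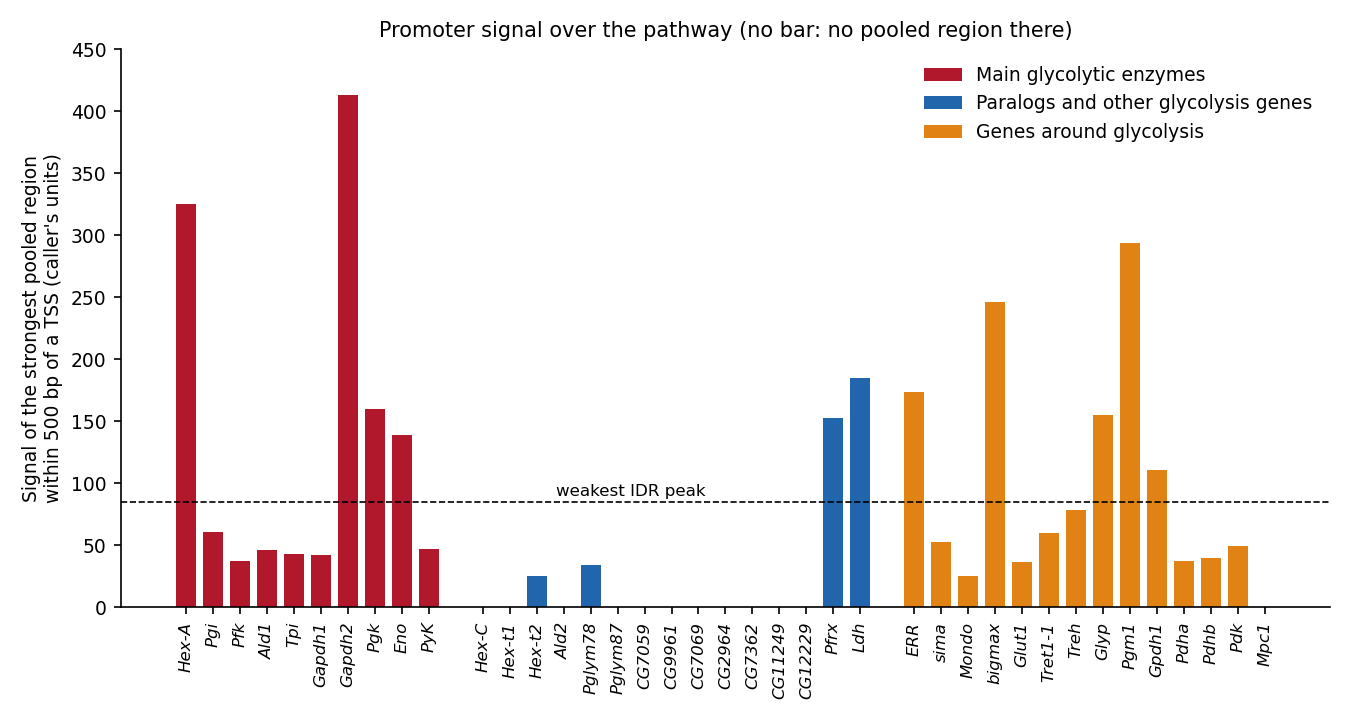
Signal of the strongest pooled region within 500 bp of a TSS, in the caller's units, for the 10 glycolytic enzyme genes (red), 15 further glycolysis genes (blue) and 14 genes around the pathway (orange); no bar means no pooled region there. The dashed line is the weakest IDR signal, 84.6; 4 red bars, led by Gapdh2 at 413.2 and Hex-A at 324.8, 2 blue and 5 orange ones rise above it.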

How the data were processed

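The authors deposited peak lists for each replicate, for the pooled replicates and after thresholding on the irreproducible discovery rate; per the deposited readme texts the first 2 kinds were made from alignments and a control. The signal in each deposited list is the value of the authors' peak caller; the aligner, the caller and the IDR cutoff are named in none of the texts used. The dm6 lists were used and the dm3 lists were not. Summits were placed, in Python 3.11.15 with numpy 2.4.6, pandas 2.3.3 and matplotlib 3.10.9, on the Ensembl release 115 annotation and the Release 6 sequence, which holds every interval. Coordinates count from 1. Regions matched if they shared 1 bp, and the one with the nearest summit gave the replicate value. Regions were ranked by signal within a list. The genes and lists were chosen with earlier results of these data known. Outside the 10 genes and their neighbours, genes named had an IDR promoter summit or, up to 4 a list, the strongest pooled promoter regions. Hex-C and CG12229 were named for the strongest IDR summits in the windows of their list. The code was tested on simulated peaks. Alternatives covered the flank, the TSS distance, the TSSs used, the overlap, the stronger 1632 peaks and each replicate alone. The AP-1 site and ATCGATAG were added to the motifs after the windows had been read. P-values were not computed.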

Additional observations from a re-analysis of the deposited data

How the results depend on the processing

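Of 30 alternatives for the counts and the median rank, 26 stayed within 1.5 times the reported value. With no flank, 2 genes (Pgk and Eno) in place of 7 held an IDR summit and the summits numbered 6 in place of 14; with the stronger 1632 peaks 9 summits were left. The median over the 10 genes of the rank of the strongest region in the window was 1588, and 3615 with flanks of 2 kb, which leave out the neighbours' peaks beside Pgi and Pyk. Promoter peaks were at 4 genes with 250 or 1000 bp in place of 500 bp, at 3 (without Pgk) with the outermost TSS only, and at 4 to 5 with 1 replicate left out: without replicate 2 Ald1 entered and Eno dropped out, and without replicate 3 Pgi entered. Leaving out a replicate gave 7 genes with a summit in the window each time, 11 to 16 summits, 8 to 9 genes with a promoter region of any rank, and a median rank of 1248.5 to 1626. For the rank of the strongest region at single genes, 29 of 40 alternatives moved it by less than the SD of the 2 replicate ranks. That SD comes from alternatives that are themselves counted, and it is wide where the replicates differ. Eno went from 1492 to 436 with flanks of 10 kb and still counted as within it. The 29 of 40 is therefore no measure of stability. Beyond the SD, flanks of 10 kb moved Hex-A to 86 and Gapdh1 to 2527, which gives Gapdh1 an IDR summit. Flanks of 2 kb moved Pgi to 5310 and Pyk to 8338. The other moves came from a single replicate, among them Ald1 to 2518 and Eno to 3599 without replicate 2. No paired analysis was possible because there is 1 group. Depth is unknown, so how far it limits the low-ranked replicate 3 regions cannot be given.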
